A study of Mus musculus with 3 samples.

Results

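Immunoglobulin genes were followed in 3 RNA-seq libraries from mouse cells labelled as activated regulatory T cells. This CD4 T cell class depends on the transcription factor Foxp3 and holds immune responses in check. The set holds all genes that the GENCODE M21 annotation lists as constant (C), variable (V), joining (J) or diversity (D) immunoglobulin genes, 264 of 55536 annotated genes. Members were chosen by this annotation, with no threshold on a value. The class as a whole was selected with earlier values of these same libraries known, among them the TPM of Ighm and Igkc and the library difference of Ighg2c, so the values of these 3 genes are descriptions and no p-value is given for them. The heavy chain locus gave 8 C, 113 V, 19 D and 4 J genes, the kappa locus 1 C, 102 V and 5 J genes, and the lambda locus 4 C, 3 V and 5 J genes.

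The cells were primary cells of a male mouse of 9 weeks, and the strain name in the labels lists the alleles Foxp3GFP-DTR, CD4CreERT2 and R26tdTomato. By common design such alleles place a green fluorescent protein and a toxin receptor under Foxp3, a tamoxifen-inducible Cre under Cd4, and a red reporter in the Rosa26 locus. The labels give the whole organism as the source and name neither the stimulus nor a sort gate. Polyadenylated RNA was sequenced in 1 group of 3 libraries, technical replicates 1, 2 and 3 of 1 biological replicate, with 20783676, 21206219 and 18496690 estimated gene counts. No other cell population was compared, and each SD or p-value below reflects how far libraries of a single biosample vary, a spread that may be technical. The labels do not say whether the libraries were made from separate aliquots of cells or from 1 RNA sample, so what a difference between libraries stands for cannot be told.

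An antibody or B cell receptor consists of paired heavy and light chains. In B cell precursors, the recombinase encoded by Rag1 and Rag2 joins a V, a D and a J segment of the heavy chain locus, and a V and a J segment of a light chain locus, and the joined exon is spliced to a C gene. T cells assemble their own receptor from separate loci in the same way and are known to keep their immunoglobulin light chain loci unrearranged. Constant genes of the heavy chain locus can also be transcribed before or without a complete rearrangement, which gives transcripts with no V segment.

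Of the 264 genes, 12 reached 1 TPM, a relative level corrected for transcript length, in every library, where 22.7% of all annotated genes did so. These 12 were 5 heavy C genes, 3 heavy J genes, Igkc, 1 kappa V gene and 2 lambda C genes. The 3 J genes, Ighj1, Ighj2 and Ighj4, passed on effective lengths of only 4 or 5 bases, which turn few counts into a high TPM. In replicates 1, 2 and 3, Ighj4 had 2, 4 and 2 estimated counts and Ighj2 had 2, 2 and 3. A total of 141 genes had no count in any library, 123 had some count, and 77 reached a summed estimated count of 3. For 30 genes, namely all 19 D genes, Ighj3 and the 10 light chain J genes, the effective length was under 1 base, so that the larger gene table could assign them no reads. Regulatory T cell and T cell markers were present throughout. All 10 genes of that list were detected, from Lck at 1491 ± 121 TPM, Cd3e at 1328 ± 40.7, Cd3g at 1305 ± 75.2 and Cd3d at 894 ± 30.3 down to Cd4 at 264 ± 20.6 and Foxp3 at 90.1 ± 6.76 TPM (SD, n = 3).

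Immunoglobulin genes together held 0.178% of gene counts in replicate 1 (exact 95% interval 0.177 to 0.180%), 0.173% in replicate 2 (0.172 to 0.175%) and 0.180% in replicate 3 (0.178 to 0.182%), intervals that cover counting error only. Ighm, which encodes the mu heavy chain constant region of IgM (ENSMUSG00000076617.9, minus strand, chr12:113418558-113422730 of mm10), accounted for 96.5, 90.4 and 94.5% of these counts. Its level in replicates 1, 2 and 3 was 1695, 1502 and 1673 TPM, a mean of 1624 ± 106 TPM (SD, n = 3). The libraries thus lay close together, with a ratio of highest to lowest of 1.10 in CPM, counts scaled to the library total. Ighm ranked 65 of all genes by mean TPM. It stood between Gimap4 at 1677 ± 130 TPM, the pseudogene Gm10123 at 1671 ± 35.2 and Rplp0 at 1656 ± 156 TPM above it and Rps29 at 1595 ± 124, Ptprcap at 1595 ± 74.5 and Rpl36 at 1583 ± 155 TPM below it, and none of these neighbours differed from it by more than its own SD over the libraries. The other 263 immunoglobulin genes together had 1285 estimated counts in replicate 1, 3516 in replicate 2 and 1846 in replicate 3.

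Libraries were compared gene by gene with a chi-square test of homogeneity of the counts, Benjamini-Hochberg adjusted over all 14641 genes whose counts summed to at least 30. A call therefore means that 3 libraries differed by more than counting noise, and 44.9% of the genes tested were called at an adjusted p under 0.05. Of the immunoglobulin genes, 18 reached the count minimum and 12 of them were called. These include Ighm, Igkc and Ighg2c, whose values were known at selection, and of the other 15 genes 9 were called. A C or V gene could be tested only if its counts were high in at least one library, so neither count is a measure of all 264 genes or a result about the class. The 9 were Ighg3, Ighv1-26, 4 kappa V genes, Iglc1, Iglc2 and Iglv1. In all of these 9 the highest CPM was more than 2 times the lowest, a size that 5.7% of all genes tested reached together with the call.

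The mu heavy chain is made in a membrane form and a secreted form, which differ only at their carboxy end. Splicing from the last shared exon to the membrane exons gives the receptor of the B cell surface, and reading on to the nearer polyadenylation site gives secreted IgM. The annotated transcripts of these forms share 1305 coding bases, and their 3′ coding ends are shown because the assignment of reads to either form rests partly on them. Past these ends each transcript has further bases of its own, which are not shown. In the lines below, read 5′ to 3′ along the minus strand of mm10, the last 30 shared bases are in lower case and the bases that belong to 1 form only are in capitals. The secreted end has 59 coding bases of its own (chr12:113420870-113420928) and the membrane end 122, spread over exons between chr12:113418829 and chr12:113419068.
Ighm-202, membrane form: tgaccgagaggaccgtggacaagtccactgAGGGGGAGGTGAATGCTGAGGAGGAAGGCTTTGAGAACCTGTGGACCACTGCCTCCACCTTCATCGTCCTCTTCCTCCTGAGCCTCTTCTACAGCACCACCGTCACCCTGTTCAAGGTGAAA
Ighm-201, secreted form: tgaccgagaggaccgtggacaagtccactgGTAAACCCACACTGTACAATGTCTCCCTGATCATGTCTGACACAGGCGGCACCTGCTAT
Most Ighm reads were assigned to the membrane transcript. It took 77.2% of the gene's estimated counts in replicate 1, 77.3% in replicate 2 and 76.8% in replicate 3, a mean of 77.1% ± 0.276 (SD, n = 3), and the secreted transcript took 22.8, 22.7 and 23.2%. In TPM, which corrects for transcript length, the membrane form was at 1212 ± 75.9 and the secreted form at 411 ± 29.97. These shares are estimates, since most of the sequence is common to both transcripts.

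**Figure D1:**
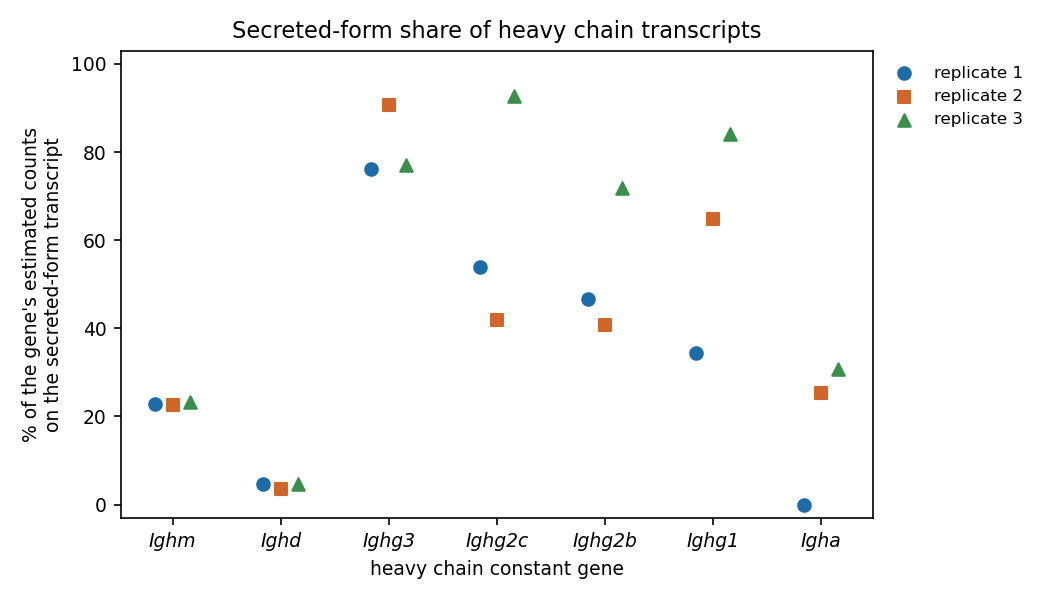
Share of each heavy chain C gene's estimated counts on its secreted-form transcript, in percent (y axis), for 7 genes (x axis) in replicates 1, 2 and 3 (circles, squares, triangles). Ighm stays between 22.7 and 23.2% and Ighd between 3.62 and 4.70%, while the thinly counted gamma and alpha genes spread widely between libraries.

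The other heavy C genes were far lower than Ighm. Ighd, the delta constant gene expressed with Ighm by mature B cells through alternative splicing (chr12:113406604-113416324), had 300, 333 and 280 estimated counts in replicates 1, 2 and 3, or 14.1 ± 0.361 TPM (SD, n = 3). The chi-square test did not call a difference between its libraries (adjusted p = 0.661), and 4.66, 3.62 and 4.70% of its counts were on the secreted transcript. Ighe, the epsilon gene of IgE, had no count in any library, which allows at most 0.144, 0.141 and 0.162 CPM in replicates 1, 2 and 3.

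The gamma genes encode the constant regions of the IgG subclasses, and 2 of the 4 had a library that stood apart. Ighg2c (chr12:113285325-113288932) was at 1.89 TPM in replicate 1, 2.37 in replicate 2 and 19.98 in replicate 3, so that replicate 3 was far above the other libraries. Without replicate 3 its mean is 2.13 TPM, against 8.08 TPM with it. Ighg3 (chr12:113356224-113361232) was at 4.44 TPM in replicate 1, 14.83 in replicate 2 and 4.50 in replicate 3. Here replicate 2 was the high one (chi-square adjusted p = 2.55e-25). Without replicate 2 its mean is 4.47 TPM, against 7.92 TPM with it, and the call is lost (adjusted p = 0.973).

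The excess in these libraries lay on the secreted transcripts. The secreted transcript of Ighg2c held 14.89 and 15.41 estimated counts in replicates 1 and 2 and 233 in replicate 3, and its membrane transcript 12.73, 21.28 and 18.46. For Ighg3, the secreted transcript held 53.37 counts in replicate 1, 203 in replicate 2 and 48.51 in replicate 3, while the membrane transcript held 16.63, 20.91 and 14.49. No test was run on single transcripts. Ighg2b had 20.4, 25.3 and 31.1 counts, Ighg1 13, 25 and 20, and Igha, the alpha gene of IgA, 15, 30 and 18 in replicates 1, 2 and 3, and none of these genes was called (adjusted p = 0.207, 0.238 and 0.148). The estimated counts of Ighg2b and Ighg2c were not whole, so the division of reads between them depends on the authors' estimation. The deposited posterior SD of these counts was 0.46 to 1.5 counts. For Ighg3 and Ighg1 the estimated counts were whole and this SD was 0.

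**Figure D2:**
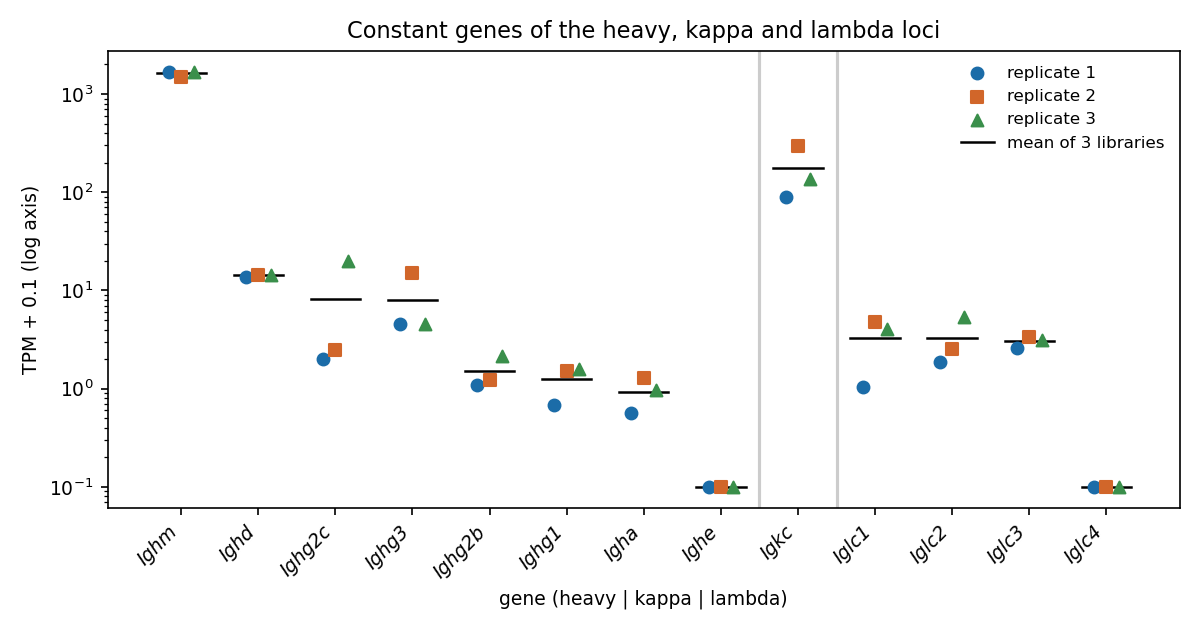
Level of the 13 immunoglobulin C genes in each library, as TPM + 0.1 on a log axis (y), by gene (x), with a bar at the mean of 3 libraries. Ighm lies at or above 1502 TPM in all libraries, Igkc between 88.7 and 298 TPM, and Ighe and Iglc4 have no count.

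Igkc, the single constant gene of the kappa light chain (ENSMUSG00000076609.2, chr6:70726435-70726966, plus strand), was the second most abundant C gene. It was at 88.67 TPM in replicate 1, 297.69 in replicate 2 and 137.59 in replicate 3, a mean of 175 ± 109 TPM (SD, n = 3). Replicate 2 was above both other libraries, and the CPM ratio of highest to lowest was 3.45. Without replicate 2 the mean is 113 TPM. The gene lies within the long non-coding RNA gene Gm30211 on the same strand, which had 17, 14 and 7 counts. Igkc had 566, 1992 and 784 estimated counts. The counts of both genes were whole and so show no reads divided between them.

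Of the 102 kappa V genes, 58 had some count, and a different gene led in each library. In replicate 1 it was Igkv17-127, with 66.31 of 151.52 kappa V counts, or 43.8% (exact 95% interval 35.4 to 51.7%). In replicate 2 it was Igkv1-135, with 371 of 682.48 counts or 54.4% (50.6 to 58.2%), followed by Igkv3-5 with 223.31. In replicate 3 it was Igkv17-121, with 134.10 of 222 counts or 60.4% (53.6 to 66.8%). The 3′ coding ends of these 4 genes are shown because the finding turns on telling them apart, and 2 of them are near-identical copies. The lines give the last 120 coding bases of the germline segments, 5′ to 3′ on the plus strand of chromosome 6, and capitals mark the 3 positions at which Igkv17-121 and Igkv17-127 differ within this stretch.
Igkv1-135, chr6:67610389-67610508: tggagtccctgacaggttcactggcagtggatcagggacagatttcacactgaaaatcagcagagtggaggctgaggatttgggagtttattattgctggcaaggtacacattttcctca
Igkv3-5, chr6:70663776-70663895: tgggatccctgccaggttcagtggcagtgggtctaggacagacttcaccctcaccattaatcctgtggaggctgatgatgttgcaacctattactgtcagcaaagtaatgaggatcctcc
Igkv17-121, chr6:68037199-68037318: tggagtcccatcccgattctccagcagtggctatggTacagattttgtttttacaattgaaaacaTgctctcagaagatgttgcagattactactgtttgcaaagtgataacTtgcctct
Igkv17-127, chr6:67861540-67861659: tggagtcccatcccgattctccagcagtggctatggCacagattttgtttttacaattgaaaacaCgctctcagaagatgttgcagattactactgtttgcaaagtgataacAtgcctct
Over the whole coding sequence Igkv17-121 and Igkv17-127 were identical at 344 of 353 positions (97.5%), and the other pairs at 53.0 to 63.5%.

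Each leading gene had few counts outside its own library. Igkv1-135 had 0, 371 and 4 estimated counts in replicates 1, 2 and 3, which makes replicate 2 at least 121-fold higher in CPM than the 3 counts that a 0 in replicate 1 allows (chi-square adjusted p = 4.35e-144). Igkv3-5 had 5.37, 223.31 and 2 counts (adjusted p = 1.32e-82). Igkv17-121 had 4.21, 3.60 and 134.10 counts (adjusted p = 7.83e-58), and its near-copy Igkv17-127 had 66.31, 7.40 and 5.90 (adjusted p = 7.97e-18). The paralogs peaked in different libraries, replicate 3 for Igkv17-121 and replicate 1 for Igkv17-127, so a few counts of one may belong to the other. Each of these genes reached the count minimum of 30 only through the library in which it peaked, and was singled out by these same counts. The p-values therefore describe the differences and are no separate support for them.

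The remaining 98 kappa V genes gave nearly the same summed count in every library, before scaling to depth. Scaled to the library total, the sums were 3.64, 3.64 and 4.11 CPM in replicates 1, 2 and 3. With the 4 leading genes left out, kappa V counts were 75.6 in replicate 1, 77.2 in replicate 2 and 76.0 in replicate 3, spread over 54 genes of which none had more than 16.7 counts in all. Among them Igkv14-111 was at 1.23 ± 0.582 TPM, Igkv1-110 at 1.2 ± 0.600, Igkv12-41 at 0.903 ± 0.635 and Igkv6-15 at 0.797 ± 0.607 TPM (SD, n = 3). The 4 genes were left out because of their counts, so this sum is a description.

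**Figure D3:**
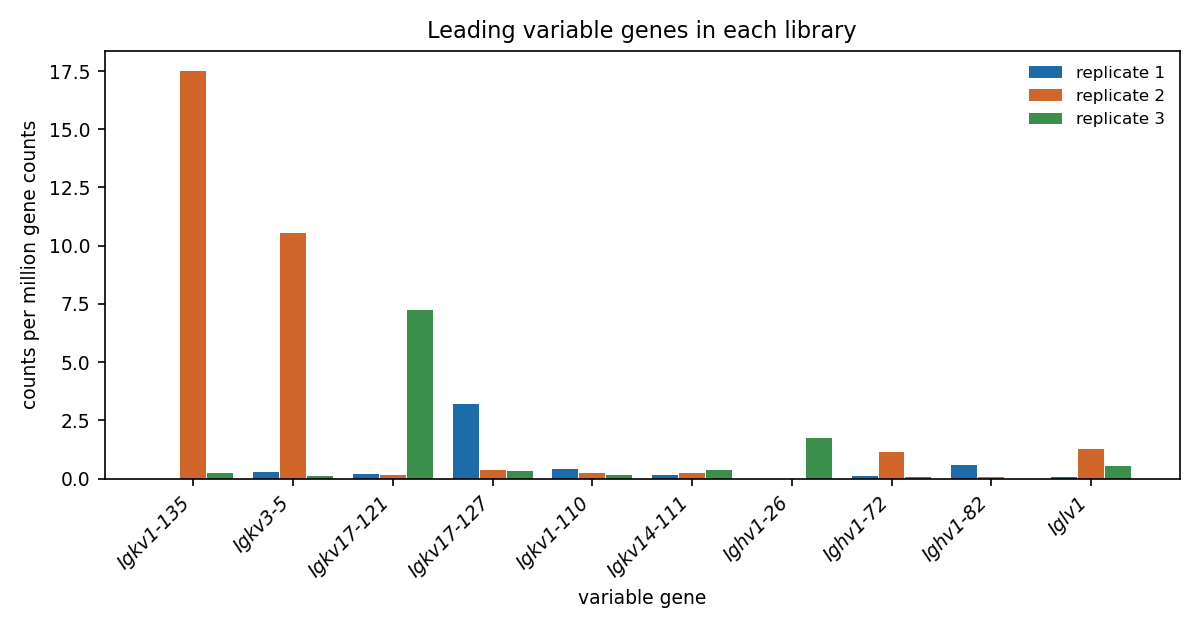
Estimated counts scaled to the library total, in CPM (y axis), of 10 named V genes (x axis) in replicates 1, 2 and 3 (left, middle and right bars). Igkv1-135 and Igkv3-5 are high only in replicate 2 of the 3 libraries, Igkv17-121 and Ighv1-26 only in replicate 3, and Igkv17-127 is highest in replicate 1.

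Heavy chain V genes carried few reads. All 113 together had 56.8, 61.5 and 80.0 estimated counts in replicates 1, 2 and 3, over 48 genes with any count, and 65 had none. Here too the leading gene changed with the library, though on small counts. Ighv1-82 led in replicate 1 with 11.7 counts, Ighv1-72 in replicate 2 with 24.22 and Ighv1-26 in replicate 3 with 31.96. In the second gene table, described below, Ighv1-82 had 7, 1 and 2 counts and Ighv1-26 0, 0 and 13, but Ighv1-72 had 0, 1 and 0, so its lead in replicate 2 was absent there. Ighv1-26, the only heavy V gene with enough counts for the test, had 0 counts in replicates 1 and 2, so replicate 3 was at least 11.97-fold higher in CPM than the 3 counts allowed in replicate 1 (chi-square adjusted p = 2.78e-15). It reached the count minimum through replicate 3 alone, so this p-value is a description. The next by level were Ighv6-3 at 0.813 ± 0.385 TPM, Ighv1-47 at 0.790 ± 0.673, Ighv6-4 at 0.737 ± 0.580, Ighv14-2 at 0.523 ± 0.297 and Ighv1-53 at 0.490 ± 0.205 TPM (SD, n = 3).

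Lambda genes were the lowest of the light chains. Iglc1 had 5, 26 and 19 estimated counts in replicates 1, 2 and 3 (chi-square adjusted p = 0.00372), Iglc2 9.66, 13.86 and 26.54 (adjusted p = 0.00630, and 0.220 in the second gene table, where the call is lost) and Iglc3 13.34, 18.14 and 14.46 (adjusted p = 0.772), and Iglc4 had none. The call of Iglc1 was lost without replicate 1 (adjusted p = 0.712). The estimated counts of Iglc2 and Iglc3 were not whole, so the division of reads between these genes is uncertain, while those of Iglc1 were whole. Iglv1, the main lambda V gene of the mouse, had 1.29, 27 and 10.07 counts, lowest in replicate 1, and its call was lost without that library (adjusted p = 1.8e-05 with all libraries and 0.0548 without it). Iglv2 had 2.71, 0 and 3.93 counts and Iglv3 a single count, in replicate 3.

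A transcript of a rearranged gene carries 1 V segment for 1 C gene, so the summed V level was set against the summed C level in each locus. For the heavy chain the V genes summed to 0.876, 0.899 and 1.32 TPM per 100 TPM of C genes in replicates 1, 2 and 3, a mean of 1.03 ± 0.248 (SD, n = 3). With Ighm left out of the C sum, the heavy chain ratio in TPM was 68.1, 39.2 and 52.2. Its mean was only 11.3 in estimated counts and 12.8 in the second gene table. The V sum still held any V segments joined to Ighm, so this ratio does not set 1 V segment against 1 C gene. In TPM, kappa gave 41.3, 49.2 and 43.8, a mean of 44.8 ± 4.02, although Igkc itself differed 3.45-fold in CPM between these libraries. Lambda gave 18.8, 55.2 and 31.4 on few counts.

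The same ratio was taken for the T cell receptor loci of these libraries, whose rearranged transcripts T cells express. The beta locus gave 45.2, 43.8 and 45.6 V TPM per 100 C TPM in replicates 1, 2 and 3 and the alpha locus 61.3 ± 0.845 (SD, n = 3). The delta locus, with 5 V genes, gave 784 ± 205. The heavy chain ratio was below these in every library and the kappa values lay on both sides of the beta values, and no test of either difference was made. This order depends on the table: in the second gene table the ratios were 1.36 ± 0.396 for the heavy chain, 38.7 ± 11.0 for kappa, 520 ± 17.04 for beta and 197 ± 14.9 for alpha, so that kappa lay far below beta there. In estimated counts, without the correction for length, the ratios were 0.196 ± 0.0476 for the heavy chain, 29.8 ± 3.95 for kappa, 24.0 ± 0.478 for T cell receptor beta and 26.5 ± 0.311 for alpha. Reads over a V-J junction or over mutated V sequence can fail to align to germline segments, and this loss was not measured.

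**Figure D4:**
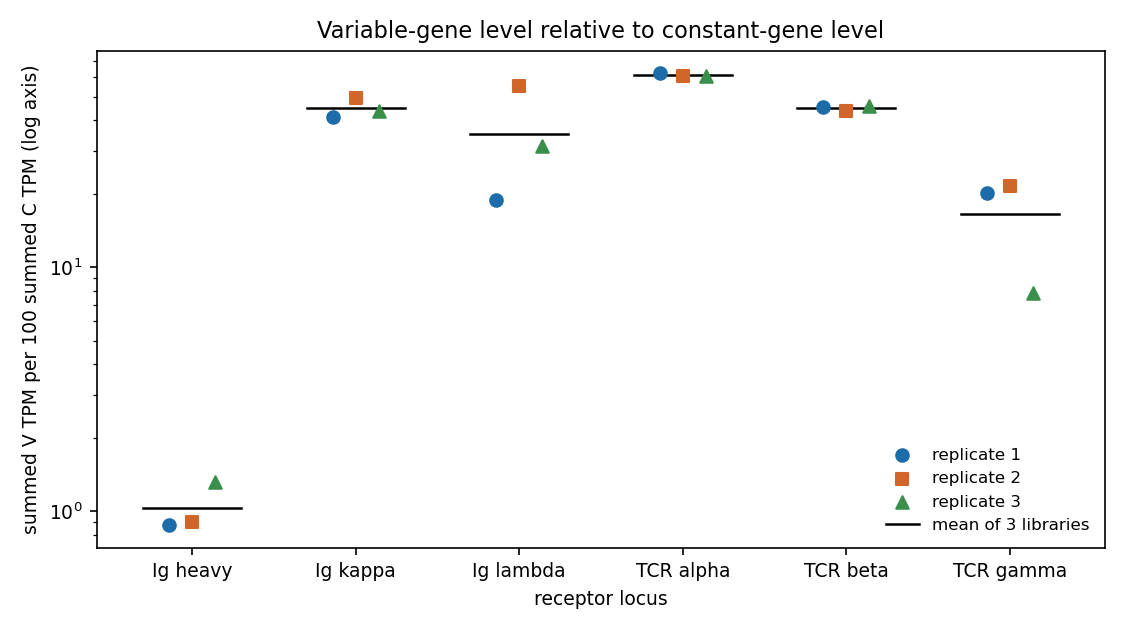
Summed V TPM per 100 summed C TPM (y axis, log) for the immunoglobulin loci and the T cell receptor (TCR) alpha, beta and gamma loci (x axis) in each of 3 libraries, with a bar at the mean. The TCR delta locus is not drawn. The heavy chain lies near 1, kappa and TCR beta near 45 on this scale, and TCR gamma, with 3 to 14 V counts a library, between 7.82 and 21.5.

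Heavy chain J and D segments are too short for the larger table to count well, and a second gene table deposited for the same libraries was used to look at them. The segments are shown because their length is the limit and because a read in them can come from an unrearranged locus as well as from a joined gene. The J segments, from first to last along the locus, and the D segment nearest to them are given 5′ to 3′ on the minus strand of chromosome 12, with the bases TGGGG that begin the conserved tryptophan-glycine motif in capitals.
Ighd4-1, chr12:113430528-113430538: ctaactgggac
Ighj1, chr12:113429781-113429833: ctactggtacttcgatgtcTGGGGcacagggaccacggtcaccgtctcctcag
Ighj2, chr12:113429468-113429515: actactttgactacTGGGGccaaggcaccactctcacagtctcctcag
Ighj3, chr12:113429085-113429132: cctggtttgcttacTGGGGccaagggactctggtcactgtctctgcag
Ighj4, chr12:113428514-113428567: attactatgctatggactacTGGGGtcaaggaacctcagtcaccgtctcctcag
In the second table Ighj1 had 119, 110 and 100 counts in replicates 1, 2 and 3. Ighj2 had 30, 31 and 40, Ighj3 31, 30 and 43, and Ighj4 36, 47 and 33. The 4 J genes thus summed to 216, 218 and 216 counts, against 43, 37 and 64 for all 113 heavy V genes in the same table.

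In the second table, counts on J segments exceeded those on V segments in every library. In the larger table the order was the reverse, with 33, 21 and 21 estimated counts on J genes and 56.8, 61.5 and 80.0 on V genes. Ighj4 ends the J cluster 5784 bases before the start of Ighm in the direction of transcription, and the known intronic enhancer of the heavy chain locus lies in that interval. Ighd4-1, 695 bases before Ighj1, had 15, 17 and 7 counts in the second table, Ighd3-2 had 1 count in all, and the other 17 D genes had none. In the larger table Ighj1 had 29, 15 and 16 estimated counts, which its effective length of 4 bases turns into 386 ± 145 TPM. That level, and those of Ighj4 at 40.6 ± 14.9 and Ighj2 at 36.7 ± 12.3 TPM, rest on so few countable positions (for Ighj2, those of a longer annotated transcript, since the segment shown has 48 bases) that they should not be compared with other genes. The 5 kappa and 5 lambda J genes have no effective length in the larger table and were not analysed in the second.

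The second table also gave another reading of the abundant genes. There Ighm had 3148, 3171 and 3124 counts, or 518 ± 22.5 CPM (SD, n = 3), and ranked 181. These counts are 9.39% of its estimated counts in the larger table, whereas the median over 9314 genes with enough counts was 46.5%. The share fell with the number of reads per base: 72 genes within 1.5-fold of Ighm's 20.99 counts per effective base had a median of 3.53%, and 62 of them were below Ighm. The order of libraries for Ighm differed between the tables, since replicate 2 was lowest in the larger one and replicate 1 in the second, at 501 CPM against 511 in replicate 2 and 544 in replicate 3. For 7 genes with a library that stood apart, the same library was highest in both tables: Igkv1-135 had 0, 175 and 2 counts in the second, Igkv3-5 3, 89 and 2, Igkv17-121 6, 2 and 66, Igkv17-127 35, 4 and 1, Igkc 321, 634 and 390, Ighg3 61, 193 and 53, and Ighg2c 23, 39 and 209. That did not hold for Ighv1-72, and Iglc1 was not analysed in the second table. Both tables come from the same libraries, so this is no independent replication.

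**Figure D5:**
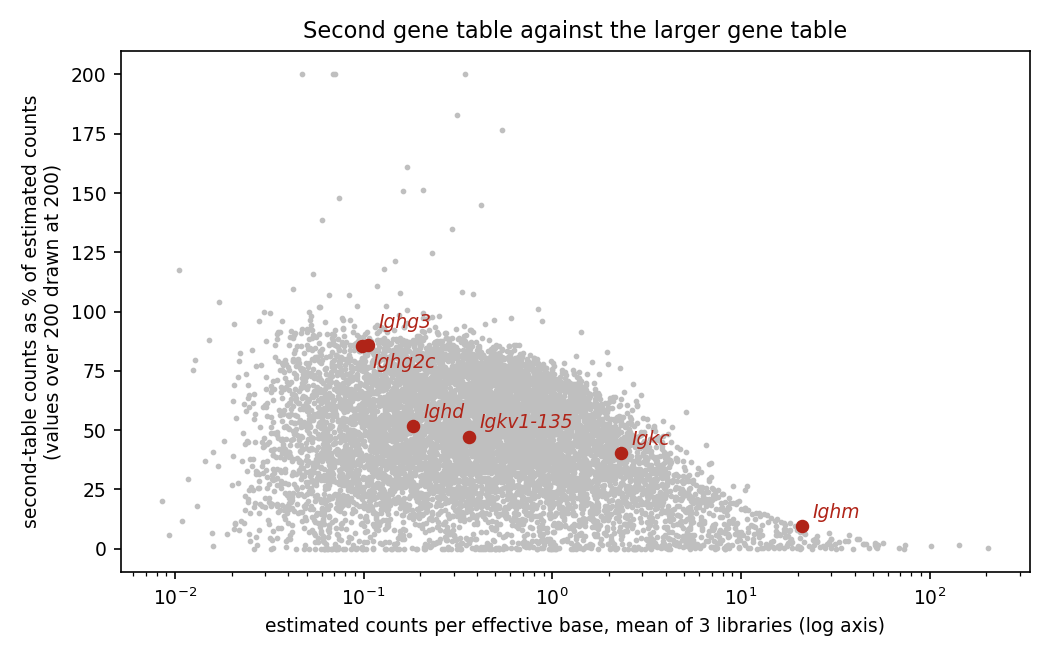
Summed second-table counts as a percentage of summed estimated counts in the larger table (y axis, values over 200 drawn at 200) against estimated counts per effective base (x axis, log), for genes with enough counts. Ighm lies at 9.39% on the falling right edge, Igkc at 40.2%, and Ighg2c and Ighg3 at 85.7 and 86.0%.

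Markers of B cells and plasma cells were measured beside these genes. In bulk RNA, fewer cells of a type and less RNA per cell cannot be told apart. Of 16 B cell genes, all had some count, 9 were detected and 6 of 14 tested were called, where 44.9% of all genes were, and their summed level was 89.5 TPM in replicate 1, 81.0 in replicate 2 and 104 in replicate 3. The highest were Cd79b at 38.7 ± 0.981 TPM, Cd22 at 14.9 ± 2.39, the B cell coactivator gene Pou2af1 at 13.5 ± 4.41 and Cd79a at 6.61 ± 1.32 TPM, and the lowest Pax5 at 0.597 ± 0.222 and Blk at 0.527 ± 0.126 TPM (SD, n = 3). Cd79a and Cd79b encode the signalling partners that the membrane mu chain needs to reach the surface, and Cd79a differed between libraries (chi-square adjusted p = 0.0327) while Cd79b did not pass the test (adjusted p = 0.488). Replicate 3 was highest in CPM for 11 of the 16 genes, and it also led in other lists. It was highest for 14 of 19 genes of B cell receptor signalling, 4 of 5 myeloid genes with a count and 5 of 10 regulatory T cell genes. Among plasma cell genes with a count it was highest for 3 of 10, and among red cell genes for 0 of 6. The share over all genes was not counted.

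Of 11 plasma cell genes, 7 were detected, and their summed level was 177 TPM in replicate 1, 147 in replicate 2 and 139 in replicate 3. Most of that sum came from Xbp1 at 49.98 ± 13.5 TPM, Prdm1 at 29.6 ± 2.24, Irf4 at 25.8 ± 1.82 and the endoplasmic reticulum gene Creld2 at 21.9 ± 4.92 TPM, and activated T cells also express Prdm1 and Irf4. Of the defining markers, Sdc1 was at 0.347 ± 0.176 TPM and Tnfrsf17 at 0. The plasma cell genes did not share a leading library. Of the 10 with a count, 4 peaked in replicate 1, among them the called genes Xbp1, Creld2 and Txndc5, and 3 peaked in replicate 2. Jchain, which links secreted IgM and IgA into polymers, was called and had 32, 85 and 41 counts in replicates 1, 2 and 3. It thus peaked in replicate 2, the library in which Igkc, Ighg3, Igkv1-135 and Igkv3-5 were highest. Jchain was named after its value was seen, so this match is a description. Red cell genes were also highest in replicate 2, in all 6 of 6, with Hba-a2 at 391 ± 54.9, Hbb-bs at 379 ± 78.4, Hba-a1 at 253 ± 41.7, Hbb-bt at 78.9 ± 7.53 and Alas2 at 6.80 ± 2.31 TPM, and their sum was 910 TPM in replicate 1, 1272 in replicate 2 and 1148 in replicate 3. Of the myeloid genes, Lyz2 was at 15.0 ± 2.04 TPM, Csf1r at 8.09 ± 2.28, Adgre1 at 3.41 ± 1.43, Itgam at 1.10 ± 0.0416 and Cd14 at 0.807 ± 0.355 TPM, S100a8 was at 0, and their sum was 30.4, 21.6 and 33.3 TPM. The part of other cell types in the immunoglobulin levels was not tested.

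The genes that rearrange these loci were split by role. Rag1 had 1, 0 and 1 counts and Rag2 none, while the repair genes that serve all cells were at 61.4 ± 2.22 TPM for Xrcc6, 34.5 ± 0.922 for Xrcc5, 30.6 ± 0.395 for Prkdc and 22.8 ± 2.63 for Dclre1c (SD, n = 3). Of 8 genes of this list that could be tested, 3 differed between libraries, again beside 44.9% of all genes. Of 7 genes of class switching and hypermutation, 6 were detected and 2 differed between libraries. Among them Trp53bp1 was at 69.2 ± 2.02, Apex1 at 56.5 ± 1.95, Msh6 at 37.5 ± 5.93, Polh at 7.21 ± 0.741 and Ung at 1.90 ± 0.352 TPM. Of these 5, Msh6 differed (chi-square adjusted p = 3.96e-20).

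The surrogate light chain, which pairs with mu in B cell precursors, was nearly absent. Igll1 had no count and Vpreb2 1.25 in all, while Vpreb1 was at 2.77 ± 0.850 TPM and Vpreb3 at 1.01 ± 0.251 TPM (SD, n = 3). Among 12 receptors for immunoglobulin, 5 were detected. The highest was Trim21, the cytosolic antibody receptor, at 94.3 ± 0.894 TPM, followed by Fcer1g at 10.9 ± 2.25, Fcgrt at 5.23 ± 0.134 and the IgM receptor gene Fcmr at 3.59 ± 0.370 TPM, and the lowest were Fcamr at 0.120 ± 0.131 and Fcer1a at 0.0300 ± 0.0520 TPM. Of 19 genes of B cell receptor signalling, 15 were detected and 11 called of 19 tested, and none of these list counts is a result about its list beside the 44.9% of all genes called. Those shared with T cell receptor signalling led, with Ptpn6 at 326 ± 31.9 TPM, Pik3cd at 315 ± 14.9, Vav1 at 199 ± 10.7 and Bcl10 at 88.5 ± 2.84, and Plcg2 at 0.870 ± 0.204 and Btk at 0.830 ± 0.114 TPM were lowest.

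Of the genes bordering the loci, Zfp386 had the highest level among those named here. On either side of the heavy chain locus, Zfp386 was at 35.6 ± 0.236 TPM and the small nuclear RNA gene Gm25622 had no count (SD, n = 3). Beside the kappa locus, Rpia was at 2.63 ± 0.160 TPM, and beside the lambda locus the pseudogene Gm10088 had no count and the olfactory receptor gene Olfr164 had 4, 0 and 0. None of the 164 immunoglobulin pseudogenes had more than 12 counts in all, and together they had 30.2.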

How the data were processed

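Polyadenylated RNA was measured in 3 libraries of 1 biosample, which form 1 group, so libraries were compared with one another and no conditions. The members and gene lists were chosen with earlier results of these data known.

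For each library the authors deposited gene-level and transcript-level tables with the columns RSEM writes, on mm10 with GENCODE M21, and a smaller second gene table on GENCODE M4. The deposited estimated counts (expected counts) need not be whole, since reads are divided among genes. TPM, and FPKM, used as an alternative, were deposited by the authors in the same tables, as were each transcript's shares of its gene in percent. The second deposited table holds whole-number counts for 22457 genes. No source used here gives the aligner, strand setting, counting rule or treatment of duplicates. Length minus effective length was 49 bases in the deposited tables.

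Rows naming no gene were left out. Biotypes, coordinates and printed sequences came from GENCODE M21 (mm10). CPM are estimated counts scaled to the total of gene counts in a library, and a count of 0 allows 3 counts. Intervals are exact binomial at 95% and, like the limits for a 0, cover counting error only. The library test was Pearson's chi-square with 2 degrees of freedom, applied after rounding the estimated counts. On simulated counts of 14641 genes for this comparison of libraries it recovered 82% of genes changed 1.5-fold, 84% changed 2-fold and 100% changed 3-fold or 5-fold. Of unchanged genes 0.0831% were called. The simulated counts held counting noise alone, which is what the test assumes, and changed genes came from those above a minimum mean count. These shares therefore check the calculation and give no error rate for the real libraries.

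Named by rule were all C and J genes, the 8 highest heavy and kappa V genes, all lambda V genes, the 3 highest D genes, immunoglobulin genes called with a ratio of 2 or more, Ighm transcripts with 5% or more of counts, whole lists where these had at most 8 genes and otherwise their 4 highest and 2 lowest genes, locus neighbours, and the genes next to Ighm in rank. Of the D genes only those with counts are named. Jchain was named after its value was seen, and some genes that the rule names are counted and not reported here. Alternatives were TMM (edgeR) and DESeq2 scaling, other count filters, a likelihood-ratio statistic, other detection thresholds, FPKM, summed TPM, the second table, added pseudogenes and leaving out each library. Software was scipy 1.17.1, pandas 2.3.3, numpy 2.4.6 and matplotlib 3.10.9 under Python 3.11.15, with edgeR 4.0.16 and DESeq2 1.42.0 under R 4.3.3.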

Additional observations from a re-analysis of the deposited data

Results flagged for a closer look

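Some features other than C, V and J genes had, in every library, more than the 3 counts that a 0 allows. Of the genes of other classes, those whose counts summed to at least 30 were part of the library test, and their single results are not reported here. The D segment Ighd4-1, which the larger gene table cannot count, had the 39 counts in the second table over 3 libraries whose values per library are given above. Genes of other classes inside the heavy chain locus also had counts: the long non-coding RNA gene Gm30948 had 230.05 estimated counts, Adam6b 55.23, the pseudogene Gm9517 52.94 and the annotated microRNA gene Gm22175, which lies between Ighm and the J segments, 14.33. Inside the kappa locus the annotated microRNA gene Gm47304 had 101.59 and Gm30211, the long non-coding RNA gene that spans Igkc, 38 estimated counts.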

How the results depend on the processing

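No paired analysis was possible because there is 1 group. Of the 12 immunoglobulin genes called, 12 stayed called under TMM, DESeq2 scaling and the likelihood-ratio statistic, and at a count minimum of 10, 14 of 26 tested were called, with 38.1% of all genes. At a minimum of 100, 7 of 8 tested were called, with 51.9% of all genes, and leaving out 1 library gave 6 to 9 (6 without replicate 2, 7 without replicate 3). Over all genes the second table called 2520 of 10885 tested. Leaving out 1 library called from 3783 of 13675 to 4701 of 13828, against 6575 of 14641 with all libraries. These counts include Ighm, Igkc and Ighg2c, known at selection. For Ighg3, Iglc1, Iglc2 and Iglv1 the lost calls are given above.

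Detection gave 20 genes at 0.5 TPM, 6 at 5 TPM and 23 with the mean over libraries, against 12. Ighm was at 1040 FPKM and 518 CPM of the second table. Its membrane transcript took 74.7% in TPM or FPKM. V per 100 C was 1.03 in TPM and 1.36 in the second table for the heavy chain, against 0.196 in estimated counts, and 44.8 and 38.7 for kappa, against 29.8. For T cell receptor beta it was 44.8 in TPM and 520 in the second table, against 24.0.

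As a percent of gene counts, heavy C genes held 0.169%, and 0.0583% in the second table. The others, as a percent of counts, of summed TPM and, where it moved, of the second table, were 0.000332, 0.00173 and 0.000798 for heavy V, 0.000124, 0.0466 and 0.00357 for heavy J, 0.00545 and 0.0176 for kappa C, 0.00172 and 0.00816 for kappa V, 0.000244 and 0.000935 for lambda C, and 7.59e-05, 0.000354 and 0.000225 for lambda V. Without replicate 2, kappa C held 0.00348% and kappa V 0.000965%. The cause of these shifts was not tested. Depth leaves most V genes below the count minimum of 30.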
